A study of Mus musculus with 8 samples.

Results

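The genes described here encode scaffolds and regulators of the postsynaptic density, the protein layer under the membrane of excitatory synapses that holds glutamate receptors in place. They were taken by name from a list of 41 genes. Of these, 40 had a row in the deposited count table of 14765 genes, and Cnksr2 had none. All 40 passed the filter on low counts that left 13911 genes for testing.

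The study measured gene expression by poly(A) RNA sequencing in PrL tissue of mouse brain, taken here from the series' topic as the prelimbic cortex. The 4 SNI libraries came from C57 mice with SNI, read here as spared nerve injury, in which branches of the sciatic nerve are cut to model chronic neuropathic pain. The 4 Sham libraries came from C57 mice of the sham condition. The labels give no age, no time after surgery and no word on pooling, and do not say that each library is a separate mouse. The p-values therefore describe spread among libraries only, and that spread may be technical. Library totals were 14735602 to 19602487 counts, and a member's raw count in a library was 43 to 25271.

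In the postsynaptic density, MAGUK proteins such as PSD-95 grip the tails of NMDA receptors and, through auxiliary proteins, AMPA receptors. SAPAP proteins join MAGUKs to SHANK proteins, and SHANKs join HOMER proteins and the actin of the dendritic spine. Around this core sit adaptors, anchors for kinases and phosphatases, and proteins that switch small GTPases and so set the shape of the spine.

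Promoter letters are shown for 3 members that were lower in SNI (Sipa1l2, Magi1 and Arhgef7) and for Shank3, a member that did not pass. Any part of the promoters in the differences was not tested. Windows that overlap an exon are not shown, among them those of Dlg4 and further windows of Arhgef7 and Magi1. A further Sipa1l2 window without exon overlap, at an internal start (chr8:125492834-125493083, 48.4% G and C), is not shown either. That window holds no GC box and no EGR site. RefSeq windows (GRCm38.p6) were at hand for 36 of the 41 genes, among them 4 of the 6 members called below. Each sequence is the 250 bases before a RefSeq transcription start, 5′ to 3′ on the gene's strand, and none of the 4 windows overlaps a GENCODE M21 exon. Capitals mark the letters of a GC box (GGGCGG), a cyclic AMP response element (TGACGTCA) or an EGR site (GCGTGGGCG), on either strand. Where a GC box and an EGR site overlap, the capitals run together.
Sipa1l2, chr8:125569864-125570113, minus strand: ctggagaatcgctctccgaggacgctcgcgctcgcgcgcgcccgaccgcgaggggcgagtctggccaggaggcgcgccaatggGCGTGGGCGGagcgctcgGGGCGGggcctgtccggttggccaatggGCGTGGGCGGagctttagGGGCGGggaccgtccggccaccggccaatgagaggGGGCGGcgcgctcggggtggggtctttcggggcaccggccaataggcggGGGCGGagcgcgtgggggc
Magi1, chr6:93913691-93913940, minus strand, inside the longer annotated gene: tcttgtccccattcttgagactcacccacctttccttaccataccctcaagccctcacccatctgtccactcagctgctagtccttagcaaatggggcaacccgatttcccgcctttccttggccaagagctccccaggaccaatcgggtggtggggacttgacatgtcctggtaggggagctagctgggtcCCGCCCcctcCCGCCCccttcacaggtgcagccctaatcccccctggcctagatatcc
Arhgef7, chr8:11779034-11779283, plus strand, an internal start: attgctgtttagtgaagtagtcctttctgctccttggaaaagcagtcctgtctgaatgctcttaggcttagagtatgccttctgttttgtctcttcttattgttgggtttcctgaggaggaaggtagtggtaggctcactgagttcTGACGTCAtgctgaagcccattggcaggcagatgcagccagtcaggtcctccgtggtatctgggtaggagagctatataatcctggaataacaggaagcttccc
Shank3, chr15:89499358-89499607, plus strand: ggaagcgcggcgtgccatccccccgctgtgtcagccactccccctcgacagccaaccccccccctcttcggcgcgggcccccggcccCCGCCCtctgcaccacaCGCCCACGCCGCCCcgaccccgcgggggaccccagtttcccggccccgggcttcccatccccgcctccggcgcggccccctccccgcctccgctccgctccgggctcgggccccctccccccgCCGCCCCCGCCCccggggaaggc

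The printed Sipa1l2 window holds 6 GC boxes and 2 EGR sites, and the Shank3 window 4 GC boxes and 1 EGR site. Letters of a GC box occur in 37 of the 67 member windows (55.2%) and in 32.7% of all 32851 windows. The 37 windows belong to 27 of 36 genes, among them Cnksr2, which has no row of counts. Windows of the same gene can overlap, as in Begain, so windows are not independent. Member windows were also richer in G and C, with a median of 62.4% against 52.4% over all windows. EGR letters occur in 2 member windows (2.99%; 0.536% of all windows) and the cyclic AMP element in 1, that of Arhgef7 (1.49%; 1.55% of all windows). The E-box CACGTG occurs in 7 member windows of 5 genes (10.4%; 6.02% of all windows). The AP-1 letters TGANTCA occur in 1, the Sipa1l2 window not shown (1.49%; 6.75% of all windows). The GC box was present both in windows of members that passed the test and in windows of members that did not.

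In SNI, 6 of the 40 members were lower at an adjusted p of 0.05 by edgeR's quasi-likelihood test, and 0 were higher. They were the scaffolds Shank2, Dlg4, Dlgap2, Sipa1l2 and Magi1 and the GTPase activator Arhgef7, with falls of 19.8% to 29.0%. As a share of members the 6 make 15.0%, where 2.87% of all tested genes were called lower, 2.15% higher and 5.02% in either direction. At an unadjusted p under 0.05, 19 members were lower (10.7% of all tested genes) and 1, Homer3, was higher, where 21.1% of all tested genes passed in either direction. DESeq2 and limma voom also called 0 members higher. In tissue RNA, fewer neurons and less of an mRNA per neuron cannot be told apart.

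Over the 40 members the log2 fold change was below 0 in 37 and its median was -0.20. Over all tested genes 47.8% were below 0 and the median was 0.01. All 4 SNI values lay below all 4 Sham values in 13 members (32.5%; 7.02% of all tested genes) and above them in 1, Homer3 (2.5%; 5.64% of all tested genes). The 7 members without overlap that did not pass were Dlg2, Dlg3, Dlgap3, Begain, Tanc2, Git1 and Dbn1. Their edgeR adjusted p ran from 0.0789 for Git1 to 0.287 for Begain.

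The call count rested on single libraries. It became 1 (Shank2) without Sham replicate 3, where 1.20% of all tested genes were called lower. Without SNI replicate 3 it was also 1 (Shank2), where 1.42% of all tested genes were. It was 3 without Sham replicate 1 (1.97% of all tested genes) and 3 without Sham replicate 4 (1.98%), and 0 with a striatal marker value as a covariate. With that covariate 0.22% of all tested genes were called lower, the members' median log2 fold change was -0.16, and that of the 6 genes was -0.41 (Dlgap2) to -0.29 (Arhgef7) with larger SEs (0.123 for Dlg4, against 0.0882 without it). With library totals in place of the scaling by trimmed means (TMM), 33 members had a log2 fold change below 0. In that setting 4 members were called lower (1.98% of all tested genes), and 38.2% of all called genes were lower, against 57.2% with TMM.

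**Figure D1:**
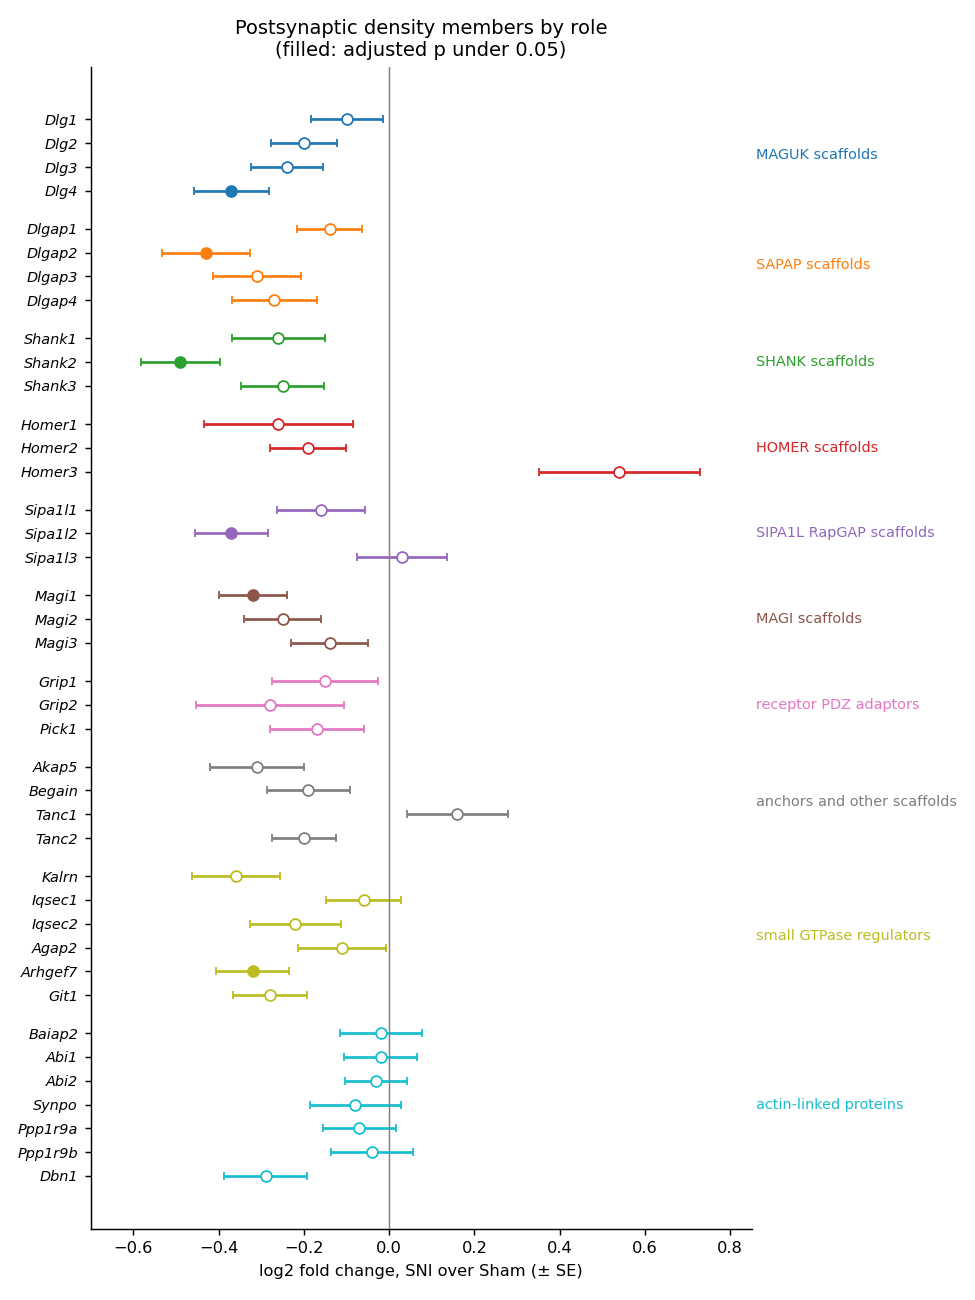
Log2 fold change (SNI over Sham, bars show SE) of the 40 members, grouped by role, with filled points for an edgeR adjusted p under 0.05. The 6 filled points lie between -0.49 and -0.32, and Homer3 stands alone on the right at 0.54 with an open point.

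Of the 4 MAGUK scaffolds, 1 fell, Dlg4, which encodes PSD-95, the most studied scaffold of the excitatory postsynapse. Its level was 867, 679.6, 748 and 865 CPM (the TMM-scaled count relative to library size) in SNI replicates 1 to 4, against 1002, 1023, 1036 and 1029.7 CPM in Sham replicates 1 to 4. The Sham libraries lay close together and every SNI library lay well below them, with replicate 2 lowest. The mean was 790.0 ± 92.4 CPM in SNI and 1022 ± 14.7 CPM in Sham (SD, n = 4 libraries each). The log2 fold change was -0.37 ± 0.0882 (SE), with an edgeR adjusted p of 0.0257.

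Dlg4 lies on chromosome 11 from 70016942 to 70047522 (GRCm38, GENCODE M21). Its call ended without Sham replicates 1, 2 or 3 or SNI replicate 3, with a highest edgeR adjusted p of 0.0766. The other MAGUKs did not pass. Dlg3 (SAP102) and Dlg2 (PSD-93) had log2 fold changes of -0.24 and -0.20 with groups that did not overlap. Dlg1 (SAP97) had -0.10 with groups that did. The exons of Dlg2 overlap other annotated genes on its strand, so its count is uncertain. Magi2 and Pick1, described below, share this limit.

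Dlgap2 was the SAPAP scaffold that fell. SAPAP proteins bind the guanylate kinase domain of PSD-95 on one side and the PDZ domain of SHANK on the other. Dlgap2 had 42.3, 41.6, 41.4 and 47.7 CPM in SNI replicates 1 to 4, against 48.6, 53.1, 65.5 and 66.1 CPM in Sham replicates 1 to 4. SNI replicate 4 came within 1 CPM of Sham replicate 1, and the Sham libraries spread more widely than the SNI libraries. The mean was 43.2 ± 2.97 CPM in SNI and 58.3 ± 8.81 CPM in Sham (SD, n = 4 libraries each), and the log2 fold change was -0.43 ± 0.103 (SE, edgeR adjusted p = 0.0259). The gene lies on chromosome 8 from 14095865 to 14847680. Its call ended without Sham replicates 3 or 4 or SNI replicates 2 or 3 (highest edgeR adjusted p 0.0984). The Dlgap2 call also ended with voom and with the striatal covariate.

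Dlgap1, the SAPAP with the most counts, had 539, 497, 485 and 484 CPM in SNI replicates 1 to 4, against 519.9, 551, 595 and 543 CPM in Sham replicates 1 to 4. The groups overlapped through SNI replicate 1, and the log2 fold change of -0.14 ± 0.0768 (SE) did not pass (edgeR adjusted p = 0.314). Dlgap3 and Dlgap4 had -0.31 and -0.27 and did not pass (edgeR adjusted p 0.102 and 0.135). Exons of Dlgap1 and Dlgap4 overlap genes on the opposite strand.

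Shank2 showed the largest fall of the 40 members. SHANK proteins form the deep scaffold layer, between SAPAP above and HOMER and the actin network below. Shank2 had 137, 119.9, 142 and 141 CPM in SNI replicates 1 to 4, against 161, 208, 206 and 185 CPM in Sham replicates 1 to 4. All SNI values lay below all Sham values, and Sham replicate 1 was the nearest to them. The mean was 135 ± 10.3 CPM in SNI and 190.1 ± 22.1 CPM in Sham (SD, n = 4 libraries each). The log2 fold change was -0.49 ± 0.0931 (SE), a fall of 29.0%, with an edgeR adjusted p of 0.00834. Shank2 lies on chromosome 7 from 144001928 to 144424494. It passed whichever single library was left out (log2 fold changes from -0.57 to -0.44), and lost the call only with the striatal covariate (-0.32, edgeR adjusted p = 0.279).

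Shank1 had 382, 285, 417 and 364 CPM in SNI replicates 1 to 4, against 437, 479.9, 442 and 379 CPM in Sham replicates 1 to 4. Its groups overlapped, since SNI replicates 1 and 3 lay above Sham replicate 4. Shank3 had 184, 144, 192 and 199 CPM in SNI replicates 1 to 4, against 195, 215, 224 and 221 CPM in Sham replicates 1 to 4. Here the overlap came from SNI replicate 4 and Sham replicate 1 alone. Their log2 fold changes were -0.26 ± 0.109 and -0.25 ± 0.0975 (SE), and neither passed (edgeR adjusted p 0.177 and 0.152). Whether Shank2 differed more than its paralogues was not tested. Exons of Shank1 and Shank3 overlap genes on the opposite strand, and no source used here says whether the counting used the strand.

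No HOMER gene passed by edgeR, DESeq2 or voom, and 2 of 3 had an unadjusted edgeR p under 0.05 (Homer2 and Homer3). Over all tested genes 21.1% had such a p. Long HOMER proteins cross-link SHANK with group I metabotropic glutamate receptors, and a short form made from Homer1 after neuronal activity breaks those links. Homer1 had 129, 189, 148 and 214 CPM in SNI replicates 1 to 4, against 164, 241, 233 and 178 CPM in Sham replicates 1 to 4. The groups overlapped widely and the spread was large in both, with a coefficient of variation of 22.8% in SNI and 18.8% in Sham. The log2 fold change was -0.26 ± 0.175 (SE, edgeR adjusted p = 0.431). Counts per gene do not separate the long and short forms.

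Homer3, singled out after its values were seen, had 5.14, 4.26, 5.59 and 4.94 CPM in SNI replicates 1 to 4, against 2.92, 3.78, 3.73 and 3.21 CPM in Sham replicates 1 to 4. Every SNI library lay above every Sham library, opposite to most members. The log2 fold change of 0.54 ± 0.190 (SE) did not pass (edgeR adjusted p = 0.112). Homer3 was scarce, and its exons overlap Ddx49 on the opposite strand. Homer2 had a log2 fold change of -0.19 (edgeR adjusted p = 0.232).

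The SIPA1L proteins are scaffolds that also switch off the small GTPase Rap. Sipa1l2 fell, with 40.6, 33.2, 40.1 and 41.3 CPM in SNI replicates 1 to 4, against 48.1, 50.3, 49.9 and 51.8 CPM in Sham replicates 1 to 4. All SNI libraries lay below the narrow Sham range, and SNI replicate 2 lay far below the other SNI libraries. The mean was 38.8 ± 3.77 CPM in SNI and 50.0 ± 1.51 CPM in Sham (SD, n = 4 libraries each), with a log2 fold change of -0.37 ± 0.0862 (SE) and an edgeR adjusted p of 0.0248. The gene lies on chromosome 8 from 125418063 to 125569808, and the GC-rich window printed first above stands at its 5′ end. Without SNI replicate 2 it passed with a log2 fold change of -0.30, and its call ended without Sham replicates 3 or 4 or SNI replicate 3 (highest edgeR adjusted p 0.0687).

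Sipa1l1 (SPAR), with the most counts of this family, had 323, 257, 308 and 278 CPM in SNI replicates 1 to 4, against 262, 332, 339 and 365 CPM in Sham replicates 1 to 4. The groups overlapped, Sham replicate 1 lying below 3 of the SNI libraries. Its log2 fold change was -0.16 ± 0.103 (SE, edgeR adjusted p = 0.414). Sipa1l3 had 0.03, with SNI values of 30.9 to 45.2 CPM on either side of Sham values of 38.3 to 39.3 CPM.

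MAGI proteins are guanylate kinase scaffolds with several PDZ domains, found at synapses and at epithelial junctions. Magi1 fell, with 92.5, 89.6, 77.6 and 86.0 CPM in SNI replicates 1 to 4, against 107, 104, 103 and 118 CPM in Sham replicates 1 to 4. The groups did not overlap, and SNI replicate 3 was lowest. The mean was 86.4 ± 6.46 CPM in SNI and 108 ± 6.70 CPM in Sham (SD, n = 4 libraries each), and the log2 fold change was -0.32 ± 0.0800 (SE, edgeR adjusted p = 0.0310). Magi1 lies on chromosome 6 from 93675455 to 94283917. Its call held without SNI replicate 1 or 2 and ended without any of the other 6 libraries in turn (highest edgeR adjusted p 0.0966). The Magi1 call also ended with library totals, replicate numbers as a block, and a striatal or astrocyte marker covariate.

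Magi2 (S-SCAM) had 108, 87.9, 89.0 and 113 CPM in SNI replicates 1 to 4, against 119, 111, 125 and 117 CPM in Sham replicates 1 to 4. Its groups overlapped only through SNI replicate 4 and Sham replicate 2. The log2 fold change was -0.25 ± 0.0911 (SE, edgeR adjusted p = 0.131). Magi3 had -0.14 (edgeR adjusted p = 0.395).

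**Figure D2:**
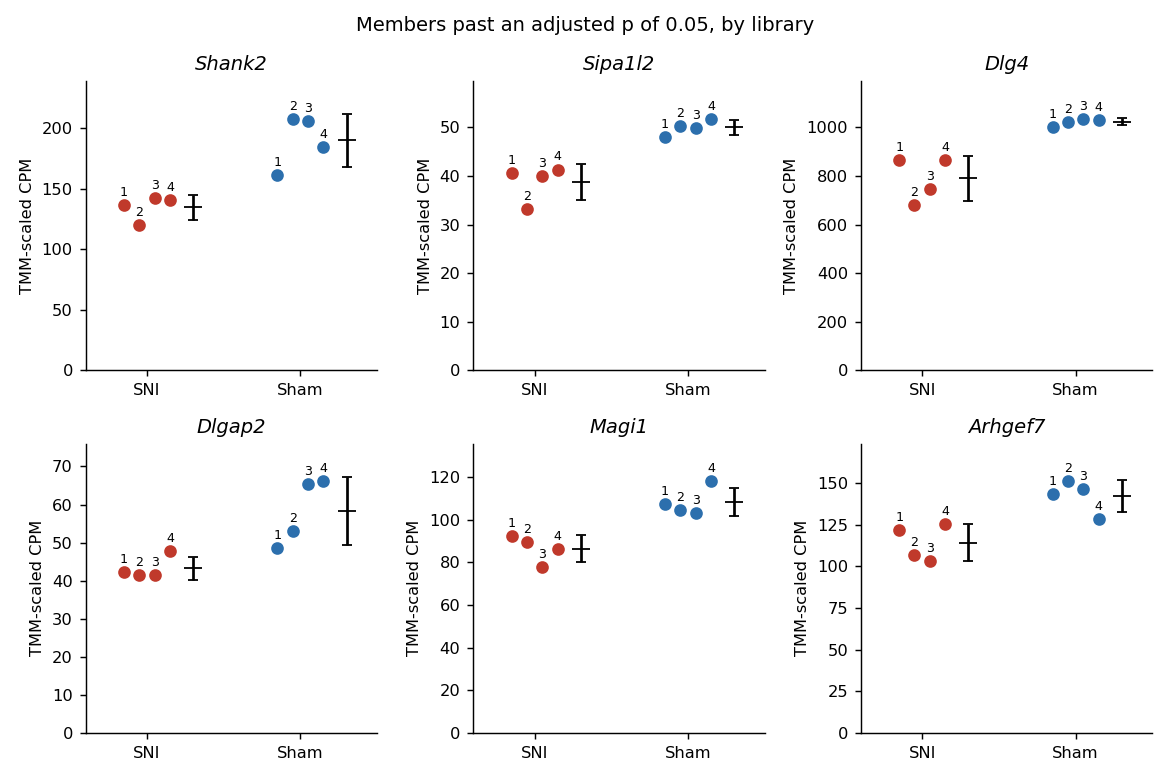
TMM-scaled CPM of the 6 members past an edgeR adjusted p of 0.05 in each SNI and Sham library, with replicate numbers above the points and mean ± SD beside them (n = 4 libraries each, vertical axes from 0). In each panel the 4 SNI points lie below the 4 Sham points, with the smallest gap in Dlgap2 (47.7 CPM in SNI replicate 4, 48.6 CPM in Sham replicate 1).

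None of the 3 receptor adaptors passed, by edgeR, DESeq2 or voom, and 0 had an unadjusted edgeR p under 0.05 (21.1% of all tested genes). Grip1 and Grip2 hold the tail of the AMPA receptor subunit GluA2, and Pick1 binds the same tail and takes part in the removal of AMPA receptors from the surface. Grip2 had 25.6, 17.3, 22.0 and 25.3 CPM in SNI replicates 1 to 4, against 25.2, 38.4, 22.6 and 23.6 CPM in Sham replicates 1 to 4. Sham replicate 2 stood above all other libraries, and without it the log2 fold change was -0.08 in place of -0.28. Grip1 and Pick1 had -0.15 and -0.17.

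The anchors and other scaffolds also gave 0 calls among 4 measured genes by edgeR, and 0 by DESeq2 or voom. At an unadjusted edgeR p under 0.05 there were 2, Akap5 and Tanc2 (21.1% of all tested genes in either direction). Begain, which binds the guanylate kinase domain of PSD-95, had 213, 156, 216 and 209.6 CPM in SNI replicates 1 to 4, against 222, 218, 238 and 226 CPM in Sham replicates 1 to 4. SNI replicate 2 stood far below the rest, and the other SNI libraries lay just under the Sham range. The log2 fold change was -0.19 ± 0.0977 (SE, edgeR adjusted p = 0.287). Akap5, the anchor of protein kinase A and calcineurin at the synapse, had -0.31 ± 0.110 (SE, edgeR adjusted p = 0.115). The scaffolds Tanc2 and Tanc1 had -0.20 and 0.16, and Tanc1 is, with Homer3 and Sipa1l3, 1 of the 3 members above 0.

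Among 6 regulators of small GTPases, Arhgef7 fell. It encodes beta-PIX, an activator of Rac and Cdc42 that works in a complex with Git1. Arhgef7 had 122, 107, 103 and 125 CPM in SNI replicates 1 to 4, against 143, 151, 147 and 129 CPM in Sham replicates 1 to 4. The groups came close, since SNI replicate 4 lay just below Sham replicate 4. The mean was 114 ± 11.0 CPM in SNI and 142 ± 9.74 CPM in Sham (SD, n = 4 libraries each), and the log2 fold change was -0.32 ± 0.0859 (SE, edgeR adjusted p = 0.0448). The gene lies on chromosome 8 from 11727721 to 11835219. Its call ended without Sham replicates 1, 2 or 3 or SNI replicates 2 or 3 (highest edgeR adjusted p 0.132). The Arhgef7 call also ended with voom, library totals, replicate numbers as a block, and a striatal or astrocyte marker covariate.

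Git1, the partner of beta-PIX and an inactivator of Arf proteins, had a log2 fold change of -0.28 ± 0.0876 (SE) with groups that did not overlap (edgeR adjusted p = 0.0789). Kalrn, which encodes the Rac activator kalirin, had -0.36 ± 0.104 (SE) and narrowly missed the threshold (edgeR adjusted p = 0.0553). Agap2 had 1243, 881, 1189 and 1247 CPM in SNI replicates 1 to 4, against 1239, 1263, 1269 and 1143 CPM in Sham replicates 1 to 4. Apart from SNI replicate 2, its libraries were level across the groups, and the log2 fold change was -0.11 (edgeR adjusted p = 0.590). The Arf6 activators Iqsec1 and Iqsec2 had -0.06 and -0.22.

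No actin-linked member passed among 7 by edgeR, with 0 called by DESeq2 or voom. Only 1, Dbn1, had an unadjusted edgeR p under 0.05 (21.1% of all tested genes in either direction). Ppp1r9b encodes spinophilin, which brings protein phosphatase 1 to spines. It had 1497, 1087, 1418 and 1375 CPM in SNI replicates 1 to 4, against 1299, 1353, 1409.9 and 1449 CPM in Sham replicates 1 to 4. The highest and the lowest library were both SNI libraries, and the log2 fold change was -0.04 ± 0.0968 (SE, edgeR adjusted p = 0.874). Baiap2 (IRSp53), the WAVE complex proteins Abi1 and Abi2, Synpo (synaptopodin) and Ppp1r9a (neurabin) had log2 fold changes of -0.08 to -0.02. In Ppp1r9b, Baiap2, Abi1, Abi2 and Synpo the sign turned under other scalings or without single libraries. Dbn1, which encodes the actin-binding protein drebrin, stood apart at -0.29 ± 0.0971 (SE, edgeR adjusted p = 0.103), with groups that did not overlap. The median log2 fold change was -0.04 for these 7 genes, against -0.29 for SAPAP, -0.26 for SHANK, -0.25 for MAGI, -0.25 for small GTPase, -0.22 for MAGUK, -0.19 for HOMER, -0.19 for anchor, -0.17 for receptor adaptor and -0.16 for SIPA1L genes. The difference between these medians was not tested.

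Levels of different genes were compared per length, as mean CPM per kb of annotated exon. Ppp1r9b was highest, at 264.5 ± 35.2 CPM per kb in SNI and 271 ± 12.9 in Sham (SD, n = 4 libraries each). Agap2 followed at 192 ± 29.4 in SNI and 207 ± 9.82 in Sham. Dlgap3 (88.3 ± 14.0 in SNI, 109 ± 4.69 in Sham) and Git1 (83.9 ± 9.70 in SNI, 102 ± 1.85 in Sham) came next. In both genes all SNI values lay below all Sham values, but neither gene passed the edgeR test.

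Dlg4 came next, at 59.6 ± 6.97 CPM per kb in SNI and 77.2 ± 1.11 in Sham, beside Baiap2 at 60.0 ± 7.39 in SNI and 60.9 ± 5.20 in Sham. This order depends on the length used. With the longest annotated transcript in place of all exons, Dlg4 had 125 CPM per kb in SNI and 162 in Sham, above Dlgap3 (94.9 in SNI, 117 in Sham) and Git1 (116 in SNI, 140 in Sham). Among the SHANK genes Shank1 was highest (34.4 in SNI, 41.3 in Sham), then Shank3 (19.6 in SNI, 23.3 in Sham) and Shank2 (12.5 in SNI, 17.6 in Sham). The lowest members per kb were Tanc1 (1.01 in SNI, 0.907 in Sham) and Homer3 (1.45 in SNI, 0.991 in Sham).

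The share of each paralogue in the counts of its family does not depend on the scaling of the libraries. Shank2 made up 20.1% ± 1.28 of SHANK counts in SNI and 22.6% ± 1.57 in Sham (SD, n = 4 libraries each). By library its share was 19.5, 21.9, 18.9 and 20.03% in SNI and 20.3, 23.0, 23.7 and 23.5% in Sham. The groups overlapped, because SNI replicate 2 exceeded Sham replicate 1. Dlg4 made up 52.6% ± 3.11 of MAGUK counts in SNI and 55.9% ± 1.32 in Sham, also with overlap. Homer3 was the only 1 of 20 paralogues without overlap, at 1.69 to 2.69% of HOMER counts in SNI and 1.22 to 1.31% in Sham. These shares are descriptions with no test.

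**Figure D3:**
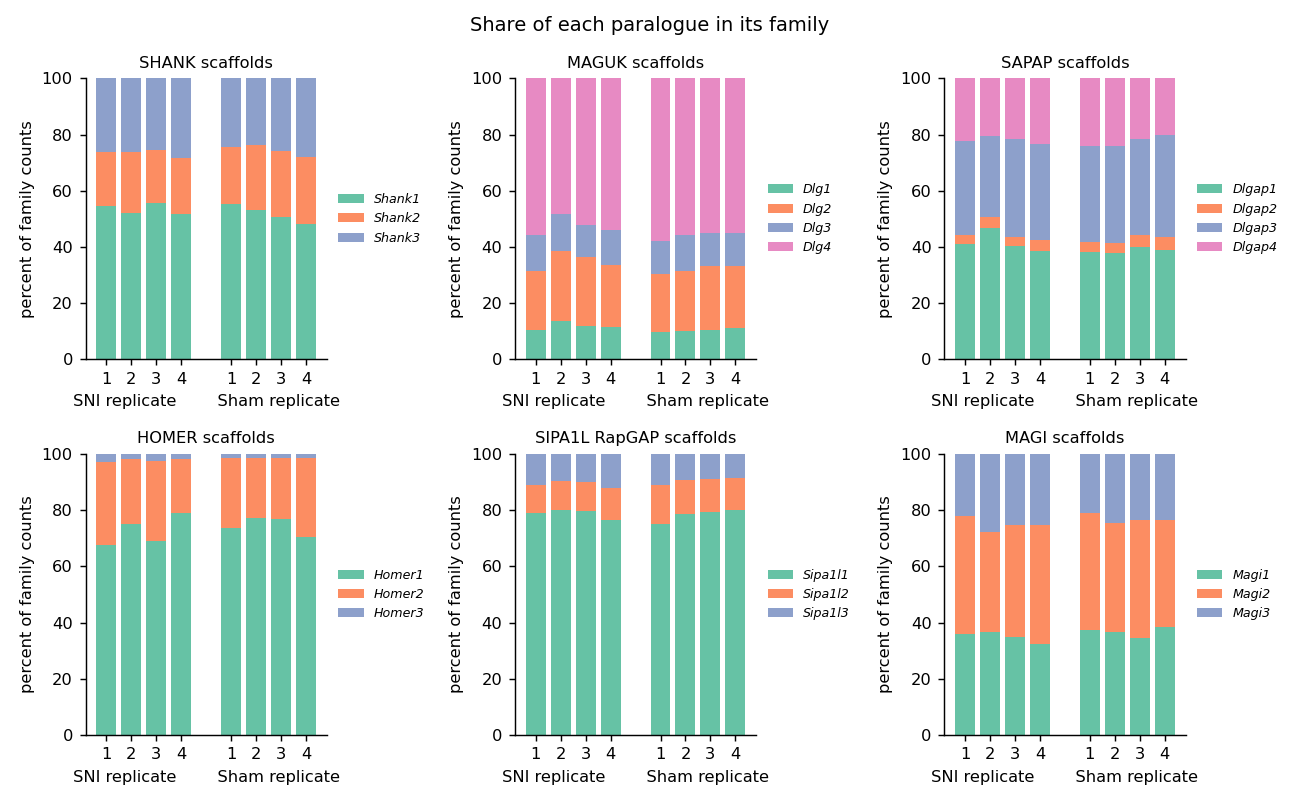
Percent of family counts taken by each paralogue in each library (SNI bars left, Sham bars right) for the SHANK, MAGUK, SAPAP, HOMER, SIPA1L and MAGI families. Dlg4 and Shank2 take smaller mean shares in SNI (by -3.36 and -2.57 percentage points, with overlapping libraries), the Homer3 band is thicker in SNI without overlap, and Dlgap1 takes 46.7% in SNI replicate 2.

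Partners of these scaffolds were counted in the same test, in which 2.87% of all tested genes were called lower. Of 14 glutamate receptor subunits of the postsynaptic density 2 fell (14.3%) and 0 rose, and the median log2 fold change was -0.14. Both encode NMDA receptor subunits that PSD-95 binds, and the list's other NMDA receptor subunits did not pass. Grin2a averaged 135 ± 12.9 CPM in SNI and 181 ± 7.74 CPM in Sham, and Grin2b 276 ± 32.9 CPM in SNI and 366 ± 30.2 CPM in Sham (SD, n = 4 libraries each). Camk2a, the main kinase of the postsynaptic density, had a log2 fold change of -0.18 and did not pass.

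Of 11 palmitoylation enzymes, some of which attach PSD-95 to the membrane, 1 fell (9.09%), Zdhhc8 (log2 fold change -0.50 ± 0.113, SE). Of 27 genes of the Rac, WAVE and Arp2/3 actin machinery 1 fell (3.7%, near the share over all genes), the WAVE protein Wasf1 (-0.34 ± 0.0826, SE), and the list's median was -0.05. The edgeR adjusted p was 0.00864 for Grin2a, 0.0212 for Grin2b, 0.0217 for Zdhhc8 and 0.0304 for Wasf1.

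Scaffolds of other synaptic compartments also had medians below 0. Of 8 measured scaffold and organizer genes of inhibitory synapses 0 passed by edgeR. At an unadjusted edgeR p under 0.05 there were 5 (21.1% of all tested genes in either direction). DESeq2 called 2 of the 8 and voom 0, where over all 13911 genes DESeq2 called 1165 and voom 781. The median was -0.22 and 8 of 8 were below 0 (47.8% of all tested genes). Insyn1 and Insyn2a had no row. Gphn, which encodes the inhibitory scaffold gephyrin, had -0.26 ± 0.0767 (SE, edgeR adjusted p = 0.0625), and Slitrk3, a synapse organizer, -0.30 (edgeR adjusted p = 0.0681). Of 16 presynaptic active zone scaffolds 2 fell (12.5%), Erc1 (-0.43) and Rims1 (-0.37), with edgeR adjusted p of 0.0191 and 0.0376, and the median was -0.17. Values below 0 were therefore seen on both sides of the synapse, and no test compared the lists.

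The 4 SNI libraries were not alike. Relative to the Sham mean, the median member was lower by a log2 difference of -0.15, -0.33, -0.19 and -0.12 in SNI replicates 1 to 4, while Sham libraries lay between -0.08 and 0.05. SNI replicate 2 held the lowest SNI value in 23 members (57.5%; 30.8% of all tested genes). The coefficient of variation was higher in SNI than in Sham for 27 members (67.5%; 62.5% of all tested genes), and for 16 when SNI replicate 2 was left out (52.4% of all tested genes). Without that library 4 members were called lower (2.30% of all tested genes), among them Shank2 and Dlg4. In that setting 33 members had a log2 fold change below 0.

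**Figure D4:**
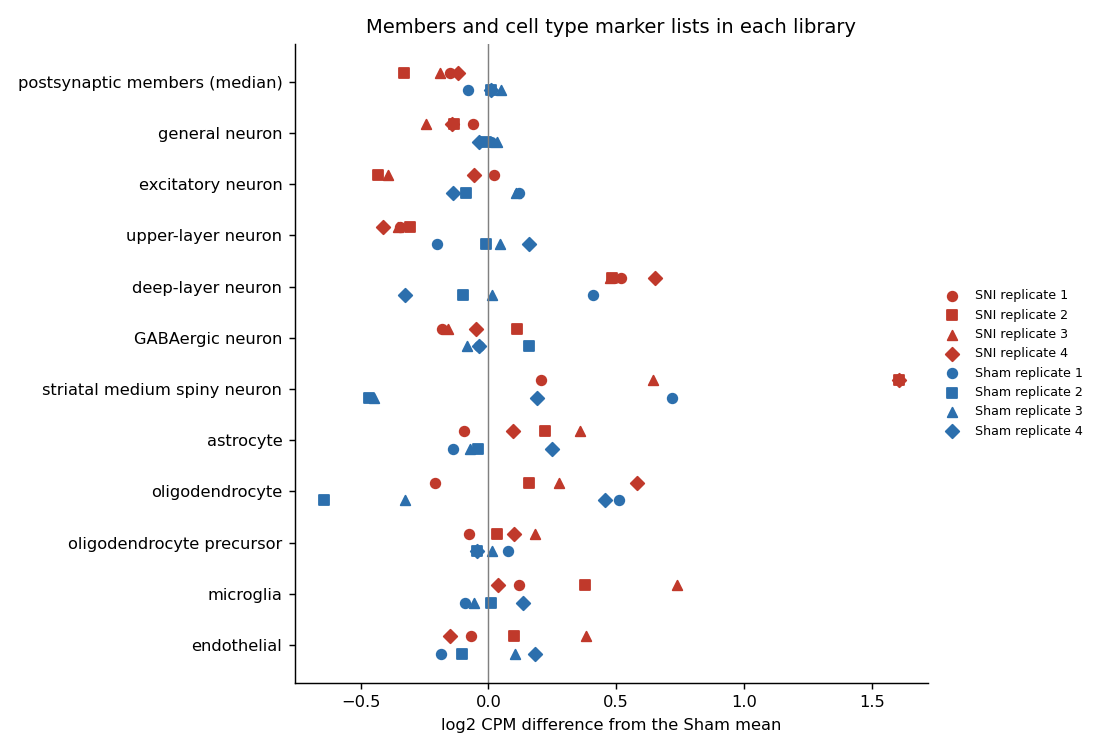
Log2 CPM difference from the Sham mean in each library (SNI points above Sham points in each row) for the median of the 40 members and for the mean of each cell type marker list. SNI replicate 2 is lowest in the member row at -0.33, and SNI replicates 2 and 4 stand out in the striatal row.

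Cell type markers moved with the groups to differing degrees, and their part in the results was not tested. No count in the table is below 1, so no marker with a row could be at 0. Summed excitatory neuron markers were 1542 CPM or more in every library, and general neuron markers 6789 CPM or more, as cortex tissue would have them. Summed general neuron markers (7 of 7 measured) were 6789 to 7674 CPM in SNI and 7818 to 8172 CPM in Sham, and 1 of them, Rbfox3, fell (log2 fold change -0.32). Upper-layer markers (5 of 5) summed to 513 to 583 CPM in SNI and 599 to 788 CPM in Sham, and Lamp5 (-0.80) and Cux2 (-0.40) fell. Excitatory markers (5 of 5) overlapped, at 1542 to 2386 CPM in SNI and 2191 to 2493 CPM in Sham. Of these, edgeR and voom called 0, DESeq2 called 1, and 2 had an unadjusted edgeR p under 0.05. Over all 13911 tested genes DESeq2 called 1165, and 21.1% had such an unadjusted p.

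Deep-layer markers (5 of 6, Bcl11b having no row) summed to 256 to 301 CPM in SNI and 168 to 258 CPM in Sham, and Hs3st4 (0.53) and Ntsr1 (0.58) rose. Markers of striatal medium spiny neurons (9 of 9) summed to 373 to 888 CPM in SNI and 252 to 495 CPM in Sham, highest in SNI replicates 2 and 4. The median striatal log2 fold change was 0.98, and edgeR called 0, DESeq2 1 and voom 5 of the striatal markers. Over all 13911 genes these tools called 698, 1165 and 781. An unadjusted edgeR p under 0.05 was found for 5 striatal markers (21.1% of all tested genes). Microglial markers (7 of 7) summed to 363 to 586 CPM in SNI and 333 to 396 CPM in Sham, and Tmem119 (0.48) and P2ry12 (0.59) rose. Astrocyte markers summed to 3682 to 4763 CPM in SNI and 3782 to 4594 CPM in Sham. GABAergic neuron markers summed to 874 to 1108 CPM in SNI and 954 to 1248 CPM in Sham. Oligodendrocyte, oligodendrocyte precursor and endothelial markers overlapped too.

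**Figure D5:**
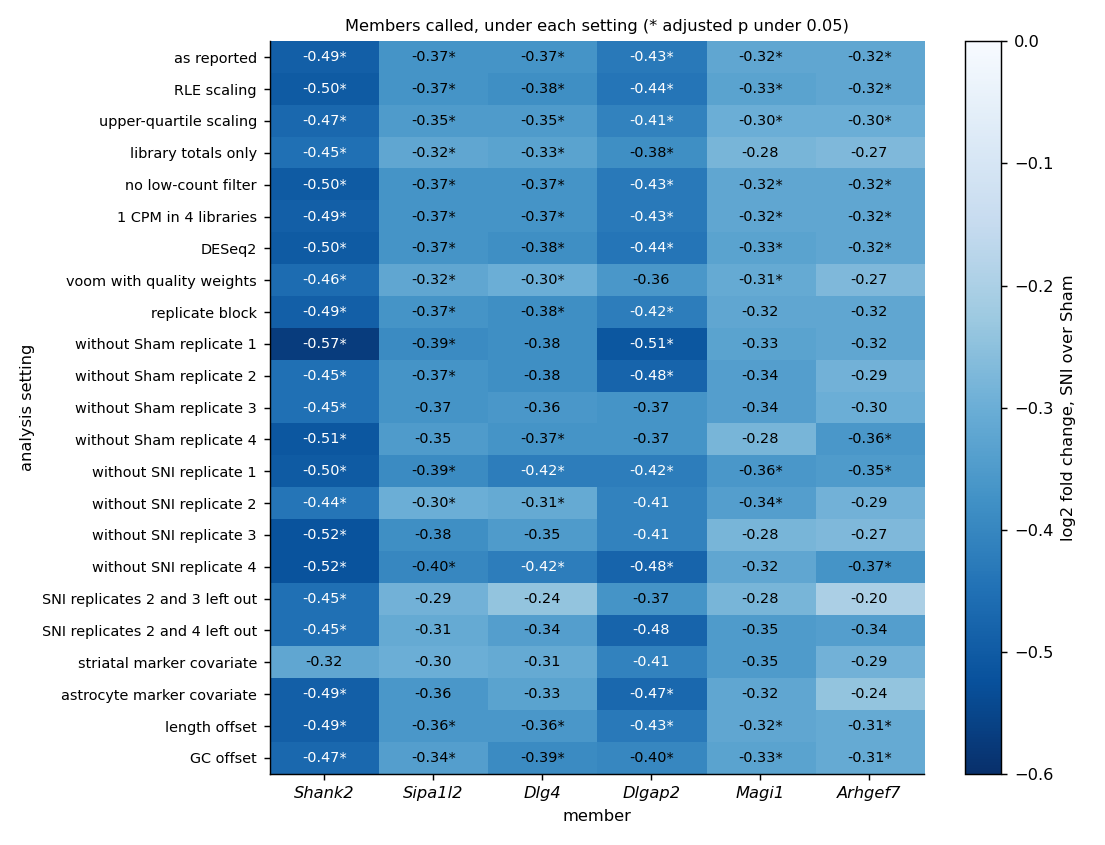
Log2 fold change (SNI over Sham) of the 6 called members under the reported setting and 22 alternatives, with stars for an adjusted p under 0.05. All entries are below 0, Shank2 keeps its star in all but the striatal covariate row, and Magi1 and Arhgef7 lose theirs most often.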

How the data were processed

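Poly(A) RNA of 4 SNI and 4 Sham samples was sequenced from libraries that keep the strand, per the labels' protocols. The authors deposited whole-number counts per gene symbol, and per the submitters' processing notes fastp, HISAT2 and StringTie were used on GRCm38. No source used here says how they were counted or filtered, and no count is below 1.

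Counts were fitted with edgeR 4.0.16 (R 4.3.3): filterByExpr, TMM, robust quasi-likelihood F-test, two-sided, group as the only term, Benjamini-Hochberg over 13911 genes, threshold 0.05. The SE is the size of the log2 fold change over the square root of F. The biological coefficient of variation was 12.1%. The fit was tested on simulated data.

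The members and lists were chosen with earlier results of these data known. Values per library are given for members past the threshold, for the member with most counts in each role group and for Shank1, Shank3, Dlg4, Homer1 and Dlgap1. Partner and marker genes are named where they passed (at most 5), otherwise by smallest p, with Camk2a added after its values were seen. The list of postsynaptic enzymes and small partners is not reported here. GENCODE M21 gave positions and lengths (14661 of 14765 symbols matched). Exons of 3 members (Dlg2, Magi2 and Pick1) overlap another gene on the same strand and of 8 on the opposite strand, and 0 of the 6 called members are among them. Alternatives were other scalings and filters, DESeq2 1.42.0, limma 3.58.1 voom, a replicate block, libraries left out, marker covariates, length and GC offsets, and other thresholds. No library was a copy of another (chi-square per degree of freedom 7.74 or more, within groups).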

Additional observations from a re-analysis of the deposited data

Results flagged for a closer look

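Of 80 groups of 4 libraries (40 members, SNI and Sham), 7 had a library far from the others. Chance gives about 1 in 20 only where groups are independent. The members share the same libraries, so 1 library can flag many groups and the 7 cannot be weighed against that rate. No share over all tested genes is given. In 4 of the 7 groups the far library was SNI replicate 2, the lowest of its group. Sipa1l2 had 33.2 CPM there, against 40.1 to 41.3 CPM in the other SNI libraries. Begain had 156 CPM there (210 to 216 CPM in the others), Agap2 881 CPM (1189 to 1247 CPM) and Synpo 164 CPM (216 to 219 CPM). Dlgap2 was highest in SNI replicate 4 at 47.7 CPM, with 41.4 to 42.3 CPM in the others. In Sham, Grip2 was highest in replicate 2 at 38.4 CPM (22.6 to 25.2 CPM in the others), and Abi2 was lowest in replicate 4 at 228 CPM (245 to 248 CPM). SNI replicate 2 also had, with replicate 4, the highest striatal marker value, and the part of this in the low values was not tested.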

How the results depend on the processing

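The count of 6 members called lower stayed within 1.5 times under other scalings and filters. It was 9 with DESeq2, 4 with voom, 6 and 9 with the length and GC offsets and 4 with the replicate block. Members called higher were 0 in every setting. The share of all tested genes called lower moved too, from 2.87% as reported to 4.70% with DESeq2 and 4.08% with the GC offset. That share was 3.16% with voom, 3.07% with the length offset and 2.20% with the replicate block. The member count ranged from 1 to 7 when each library was left out in turn, where 1.20% to 3.23% of all tested genes were called lower. It was 1 with both SNI replicates 2 and 3 left out (0.909% of all tested genes) and 2 with replicates 2 and 4 left out (1.88%). With the striatal covariate it was 0 (log2 fold changes of the 6 from -0.41 to -0.29, with larger SEs). The astrocyte covariate gave 2, Shank2 and Dlgap2 (1.81% of all tested genes), and a threshold of 0.01 gave 1. The count over all genes, 698, ranged from 258 to 858 without 1 library, and was 178 and 438 with these pairs left out, 41 and 390 with the striatal and astrocyte covariates, 1165 with DESeq2, and 155 and 1279 at thresholds of 0.01 and 0.1. The replicate block gave 518 genes; same-numbered libraries did not deviate together (correlations from -0.148 to -0.0056), and no SNI library correlated best with the Sham library of its own number. A stricter threshold lowers a count by construction and a looser one raises it. The cause of the other changes was not tested.

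Of 960 values of single members, 863 kept direction and side of the threshold. A further 53 lost the call, 11 gained it (Kalrn, Git1, Akap5 and Dlgap3) and 33 changed sign, the latter all in members that did not pass. Only the 6 called members could lose a call. Over 22 alternatives of the fit Shank2 kept it in 21, Sipa1l2 in 15, Dlg4 and Dlgap2 in 14 each, and Magi1 and Arhgef7 in 10 each. The other thresholds reuse the reported fit, so no direction could change there. With the striatal covariate the log2 fold change was 0.06 for Sipa1l1, 0.04 for Iqsec1, 0.0087 for Agap2, 0.0057 for Baiap2, 0.12 for Synpo and 0.11 for Ppp1r9b. With SNI replicates 2 and 3 left out it was 0.02 for Agap2, 0.11 for Baiap2, 0.02 for Synpo and 0.06 for Ppp1r9b, and with replicates 2 and 4 left out it was 0.04 for Iqsec1, 0.0066 for Synpo and 0.08 for Ppp1r9b. Library totals gave 0.03 for Baiap2 and Abi1, 0.02 for Abi2 and 0.01 for Ppp1r9b, and upper-quartile scaling 0.001 for Baiap2 and 0.0036 for Abi1. Voom gave 0.05 for Baiap2 and 0.01 for Ppp1r9b, the astrocyte covariate 0.07 for Baiap2, and the GC offset 0.02 for Baiap2 and 0.04 for Ppp1r9b. Over single libraries left out, values ranged from -0.04 to 0.14 for Sipa1l3, -0.10 to 0.02 for Iqsec1, -0.10 to 0.04 for Baiap2, -0.08 to 0.05 for Abi1, -0.15 to 0.01 for Synpo and -0.09 to 0.05 for Ppp1r9b. With the longest transcript as length, the CPM per kb moved by more than the spread for 73 of 80 group means. Homer3, at about 3 to 6 CPM, is the member whose depth most limits its estimate.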
